A study of Mus musculus with 79 samples.

Results

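Messenger RNA of 10 voltage-gated calcium channel subunits was followed across 4 kinds of neuron from the mouse medial prefrontal cortex. The 10 genes were taken by symbol from a table of 38879 genes, each matching 1 row: the pore-forming subunits Cacna1a, Cacna1b, Cacna1c, Cacna1e, Cacna1g, Cacna1h and Cacna1i, and the auxiliary α2δ subunits Cacna2d1, Cacna2d2 and Cacna2d3. The mice were male C57Bl/6J (the strain label reads C57Bl/6) and their ages are not given in the labels. In the UCMS arm, 10 singly housed mice met mild stressors that changed from day to day over 5 weeks, with behavioural tests near the end; the 10 control mice shared cages with littermates, so stress and single housing cannot be told apart. From each mouse, 130 neurons per type were marked with RNAscope probes in sections of 12 µm, cut out by laser and pooled into 1 total-RNA library, for pyramidal (PYR), parvalbumin (PV), somatostatin (SST) and vasoactive intestinal peptide (VIP) neurons. The 79 libraries comprise 10 per type and arm, except 9 for PV neurons of UCMS mice.

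Voltage-gated calcium channels open when a neuron depolarizes and turn electrical activity into calcium entry. The pore-forming subunit sets the kind of current: P/Q-type (Cacna1a) and N-type (Cacna1b) channels trigger transmitter release at terminals, L-type channels (Cacna1c) link activity to gene expression, R-type channels (Cacna1e) carry calcium into dendrites, spines and terminals, and T-type channels (Cacna1g, Cacna1h, Cacna1i) open near rest and shape bursting. The α2δ subunits bring high-voltage-activated channels to the surface and to release sites, and Cacna2d1 and Cacna2d2 encode the binding sites of gabapentin; transmitter release from PV basket cells of rodents is known to lean on P/Q-type channels.

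Libraries held 3642579 to 13529571 reads and between 9033 and 20307 detected genes. Slc17a7, Pvalb, Sst and Vip were each highest in the type they mark, PYR, PV, SST and VIP neurons. Pvalb averaged 874 ± 362 normalized counts in PV neurons of UCMS mice and 816 ± 422 in those of control mice (SD, n = 9 and 10), and its highest group mean in another type was 43.1. Pyramidal RNA was nonetheless present in the interneuron libraries. The summed level of 6 pyramidal markers ran from 13486 to 20488 normalized counts in PYR libraries, 1745 to 5487 in PV, 2551 to 6284 in SST and 4604 to 9448 in VIP libraries, and no marker was at 0 throughout a group; its part in the differences below was not tested. Of the 79 libraries, 7 held only 3642579 to 5863160 reads, 6 of them from VIP neurons (2 UCMS, 4 control) and 1 from PV neurons of control mouse U3; they are called the shallow libraries here. A further VIP library, of UCMS mouse U601, had the highest value of its group for 3 of the 10 subunits by a wide margin. Values without these libraries are given where they change a call and for some of the sizes that moved. A size given only with all libraries may therefore have moved too. By design every library pooled the same number of marked neurons. Within such a pool, fewer cells that express a gene and less of its RNA per cell cannot be told apart.

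The subunits differed between the neuron types, with the most calls in PV neurons. Each type was set against the mean of the other 3 in the 40 control libraries with limma on log2(normalized count + 4), keeping the mouse as a block, and a gene was called at a Benjamini-Hochberg adjusted p under 0.05. Of the 10 subunits, 9 were called in PV neurons, where 7.35% of all genes tested were (3.65% higher, 3.7% lower): Cacna1a and Cacna2d2 were higher and Cacna1b, Cacna1c, Cacna1e, Cacna1g, Cacna1h, Cacna2d1 and Cacna2d3 lower. In PYR neurons 4 were called against 6.26% of all genes (3.46% higher, 2.8% lower), with Cacna1e, Cacna1i and Cacna2d1 higher and Cacna2d2 lower. In VIP neurons 4 were called against 4.23% of all genes (2.33% higher, 1.91% lower), with Cacna1h, Cacna2d1 and Cacna2d3 higher and Cacna2d2 lower, and in SST neurons 3 against 2.49% (1.4% higher, 1.09% lower), with Cacna2d2 and Cacna2d3 higher and Cacna2d1 lower. The members' median difference was -1.03 on the log2 scale in PV neurons, against -0.08 over all genes, and 0.47, 0.29 and 0.39 in PYR, SST and VIP neurons, against 0.04, -0.04 and 0.02. Without the 7 shallow libraries, which leaves 6 VIP libraries of control mice, 1 subunit was called in VIP neurons (Cacna2d2, lower). The differences that lost their call were then 1.09 ± 0.40 for Cacna1h (1.17 ± 0.33 with all libraries), 1.05 ± 0.32 for Cacna2d1 (1.00 ± 0.27) and 0.67 ± 0.32 for Cacna2d3 (1.18 ± 0.27; log2, SE). In SST neurons 5 were called without them, with Cacna1b and Cacna1g added as higher, and the counts in PV and PYR neurons were then again 9 and 4. The share of all genes called without the shallow libraries is not given, so these changes cannot be set against it.

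**Figure D1:**
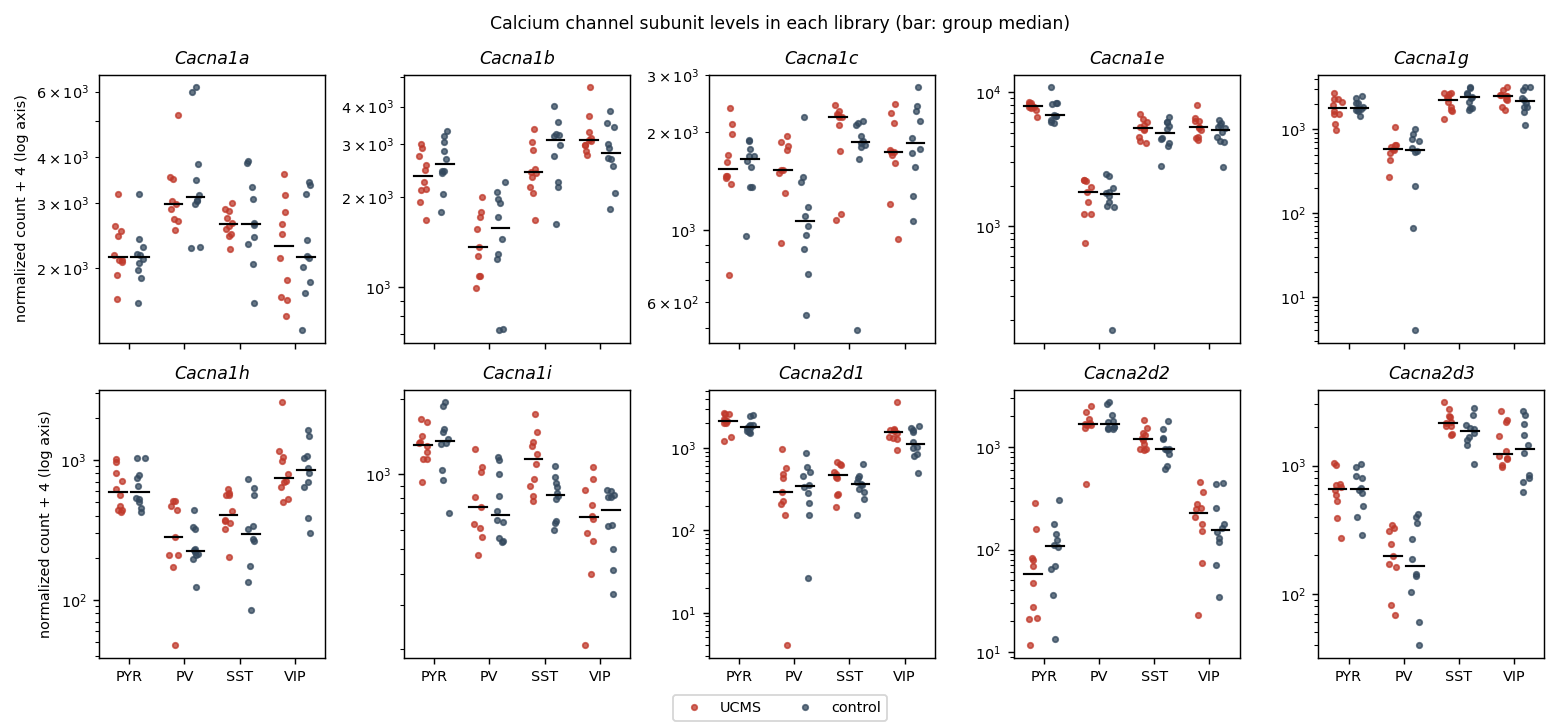
Normalized count plus 4 (log axis) of each subunit in each of the 79 libraries, by neuron type, with UCMS mice in red to the left of control mice in blue and a bar at the group median. PV neurons hold the lowest medians of Cacna1e, Cacna1g, Cacna2d1 and Cacna2d3 in both arms. The highest median is in PYR neurons for Cacna2d1, in PV neurons for Cacna2d2 and in SST neurons for Cacna2d3.

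**Figure D2:**
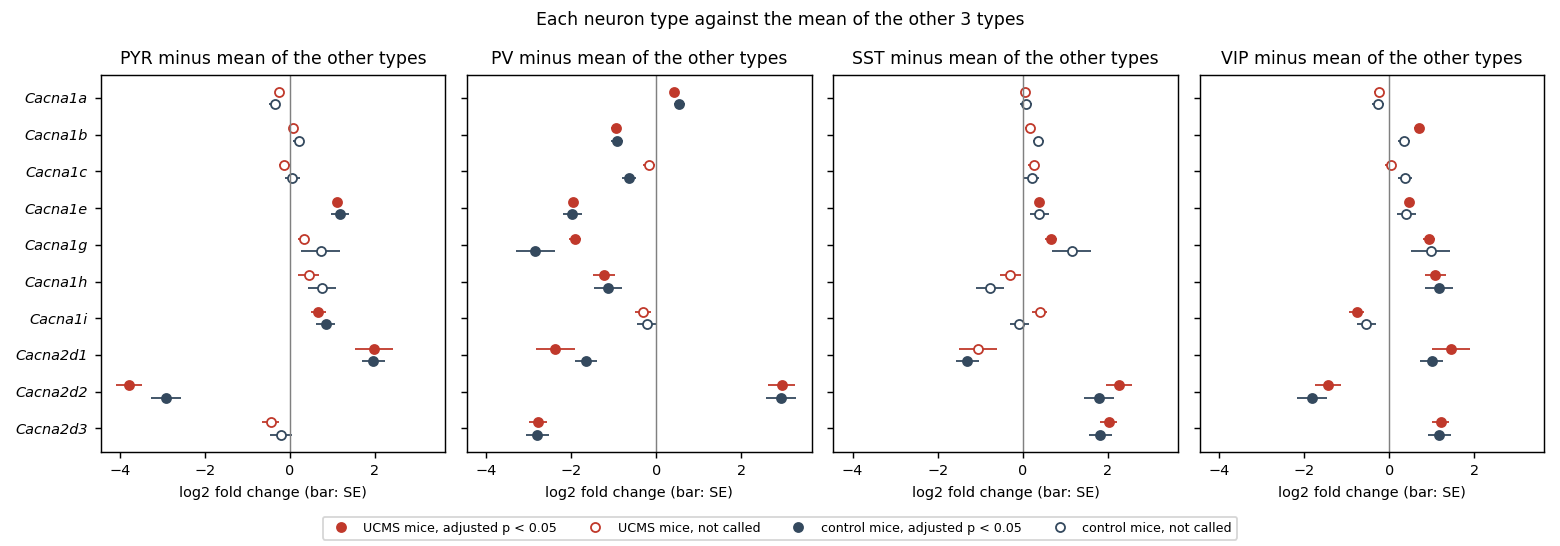
Log2 difference between each neuron type and the mean of the other 3 types (point; bar: SE) in UCMS mice (red) and control mice (blue), with filled points where limma's adjusted p was under 0.05. Of the 40 differences, 38 have the same sign in both arms.

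Cacna1a, the P/Q-type pore (ENSMUSG00000034656, GRCm38 chr8:84388440-84640246, + strand), was highest in PV neurons. Its lowest, median and highest normalized counts in PV neurons were 2531, 2978 and 5171 in UCMS mice and 2258, 3101 and 6181 in control mice. In PYR neurons the same values were 1648, 2133 and 3167 in UCMS mice and 1604, 2137 and 3175 in control mice. The ranges overlap, but every PV library of both arms lies above the PYR medians. Against the mean of the other types Cacna1a was 0.54 ± 0.13 higher on the log2 scale in PV neurons of control mice (SE; limma adjusted p = 0.00167) and 0.42 ± 0.11 higher in those of UCMS mice (limma adjusted p = 0.00405). From the highest control mean the order was PV, SST, VIP and PYR, and no step between neighbours passed the test; an antisense gene, Gm16183, shares 435 exonic bases with Cacna1a and averaged 25.6 normalized counts.

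Cacna1b, the N-type pore (ENSMUSG00000004113, chr2:24603887-24763152, - strand), ran the other way. It was lowest in PV neurons, at 993, 1356 and 2002 (lowest, median, highest) in UCMS mice and 715, 1572 and 2234 in control mice. In VIP neurons it reached 2745, 3079 and 4652 in UCMS mice and 1826, 2800.2 and 3859 in control mice. In UCMS mice the PV and VIP ranges do not overlap, and in control mice they do. The PV difference from the other types was -0.95 ± 0.12 in UCMS mice and -0.93 ± 0.14 in control mice on the log2 scale (SE; limma adjusted p = 1.45e-11 and 1.69e-08). The control means of SST, VIP and PYR neurons, 2892 ± 714, 2846 ± 634 and 2616 ± 493.4 (SD, n = 10 each), did not differ beyond their spread. Per kilobase of exon, Cacna1a exceeded Cacna1b in PV neurons, at 282 ± 70.5 and 143 ± 35.6 normalized counts in UCMS mice and 317 ± 121 and 154 ± 54.3 in control mice, whereas in VIP neurons Cacna1a lay below Cacna1b, at 205 ± 62.0 and 327 ± 56.3 in UCMS mice and 206 ± 63.0 and 286 ± 63.8 in control mice; these gene-to-gene levels were not tested.

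Cacna1c, the main L-type pore of brain (ENSMUSG00000051331, chr6:118587240-119196418, - strand), was called in 1 comparison of a type with the rest, that of PV neurons of control mice. Its control means were 1146 ± 467 normalized counts in PV neurons, 1574 ± 287 in PYR, 1779 ± 483 in SST and 1893 ± 526 in VIP neurons (SD, n = 10 each). In UCMS mice PV neurons averaged 1569.8 ± 324 (SD, n = 9), and the other types 1622 to 1971. PV neurons were below the other types in control mice, by a log2 difference of -0.65 ± 0.17 (SE; limma adjusted p = 0.00515). In UCMS mice the difference was -0.17 ± 0.14 and missed the threshold (limma adjusted p = 0.535).

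Cacna1e, the R-type pore (ENSMUSG00000004110, chr1:154390731-154884501, - strand), was high in PYR neurons and low in PV neurons. In PYR neurons it had the highest mean of the 7 pore subunits per kilobase of exon, 308 ± 22.2 normalized counts in UCMS mice and 294 ± 62.8 in control mice (SD, n = 10 each). Its lowest, median and highest normalized counts in PYR neurons were 6493, 7857 and 8441 in UCMS mice and 5888, 6716 and 11009.6 in control mice. In PV neurons they were 754, 1788 and 2220.0 in UCMS mice and 164, 1738 and 2435 in control mice. No PV library of either arm reached the lowest PYR, SST or VIP library of its arm. The SST and VIP medians lay between, at 5422 and 5466 in UCMS mice and 4969 and 5202 in control mice. Cacna1e was 1.11 ± 0.09 higher on the log2 scale in PYR neurons of UCMS mice than in the other types and 1.18 ± 0.22 higher in control mice (SE; limma adjusted p = 2.50e-23 and 0.000506). In PV neurons it was lower, with log2 differences of -1.96 ± 0.09 in UCMS and -1.98 ± 0.22 in control mice (limma adjusted p = 2.22e-44 and 1.30e-07). The control value of 164, from the shallow PV library of mouse U3, is far below the next lowest of 1379.6; without the 7 shallow libraries the control difference in PV neurons was -1.66 ± 0.10.

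Cacna1g, the T-type pore known from thalamus and cortex (ENSMUSG00000020866, chr11:94408391-94474198, - strand), was low in PV neurons and higher in each of the other types. Its lowest, median and highest normalized counts in PV neurons were 266, 573 and 1068 in UCMS mice and 0, 571 and 1021 in control mice. The PYR, SST and VIP medians were 1809, 2262 and 2489 in UCMS mice and 1783, 2414 and 2151 in control mice. No PV library of a control mouse reached the lowest PYR, SST or VIP library, and among UCMS mice the PV range meets only that of PYR neurons. PV neurons were lower than the other types, with log2 differences of -1.92 ± 0.15 in UCMS mice and -2.85 ± 0.46 in control mice (SE; limma adjusted p = 1.50e-25 and 6.09e-05). The library of mouse U3 had 0 reads of Cacna1g, which allows up to 5.98 normalized counts at its depth, and without the 7 shallow libraries the control difference was -2.08 ± 0.23.

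Cacna1h and Cacna1i, the other T-type pores, had patterns of their own. Cacna1h (ENSMUSG00000024112, chr17:25374285-25433783, - strand) was highest in VIP neurons, at 962 ± 615 normalized counts in UCMS mice and 890.1 ± 434 in control mice, and lowest in PV neurons, at 313 ± 170.1 in UCMS and 248 ± 89.3 in control mice (SD, n = 10, 10, 9 and 10). The VIP and PV ranges overlap in both arms. VIP neurons were above the other types by 1.08 ± 0.25 in UCMS and 1.17 ± 0.33 in control mice (log2, SE; limma adjusted p = 0.00103 and 0.0178). Without the 7 shallow libraries the control difference was 1.09 with an adjusted p of 0.183 by limma, and without the library of mouse U601 the UCMS difference was 0.95 with an adjusted p of 0.00803. Cacna1i (ENSMUSG00000022416, chr15:80287238-80398279, + strand) was highest in PYR neurons, at 1309 ± 221 in UCMS and 1350.2 ± 388 in control mice, and averaged 666 ± 257 in VIP neurons of UCMS mice and 661 ± 197 in those of control mice (SD, n = 10 each). It was higher in PYR neurons than in the other types by 0.67 ± 0.18 in UCMS and 0.84 ± 0.23 in control mice (log2, SE; limma adjusted p = 0.00549 and 0.00738), and the tryptase gene Tpsg1, which shares 158 exonic bases with Cacna1h, averaged 1.92 normalized counts.

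The 3 α2δ genes were each high in another set of types, and their upstream sequences are printed so that the GC-rich windows of genes so unlike in expression can be compared. The lines give the 250 bases before the annotated start (RefSeq, GRCm38.p6), 5′ to 3′ on the gene's own strand, with GC boxes (GGGCGG on either strand, so also CCGCCC, overlaps counted) in capitals.
Cacna2d1, chr5:15934441-15934690, + strand: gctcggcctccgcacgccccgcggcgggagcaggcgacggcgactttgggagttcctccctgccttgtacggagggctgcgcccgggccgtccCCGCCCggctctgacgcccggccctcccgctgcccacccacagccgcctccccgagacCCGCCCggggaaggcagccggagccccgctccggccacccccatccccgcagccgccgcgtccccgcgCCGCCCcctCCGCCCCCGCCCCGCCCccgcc
Cacna2d2, chr9:107399630-107399879, + strand: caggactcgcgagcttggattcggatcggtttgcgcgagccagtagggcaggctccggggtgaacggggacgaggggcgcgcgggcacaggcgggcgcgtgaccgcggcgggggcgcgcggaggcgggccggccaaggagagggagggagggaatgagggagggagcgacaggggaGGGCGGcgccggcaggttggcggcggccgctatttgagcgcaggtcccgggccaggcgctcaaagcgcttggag
Cacna2d3, chr14:29721865-29722114, - strand: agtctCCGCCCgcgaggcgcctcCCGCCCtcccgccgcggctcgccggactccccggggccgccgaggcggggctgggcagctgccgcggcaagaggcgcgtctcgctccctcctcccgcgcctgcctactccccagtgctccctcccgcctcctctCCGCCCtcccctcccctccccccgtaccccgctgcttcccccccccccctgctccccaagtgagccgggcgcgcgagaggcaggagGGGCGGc
The Cacna2d1 window holds 6 GC boxes, that of Cacna2d3 4 and that of Cacna2d2 1, and 32.7% of 32851 RefSeq windows of the same length hold at least 1. Their GC content was 82.4%, 80.0% and 74.4%, against a median of 52.4% over all windows. The E-box CANNTG (both strands) occurred in the Cacna2d3 window and in 66.2% of all windows; TGACGTCA and TATAAA (both strands) occurred in none of the 3 and in 1.55% and 12.4% of all windows. The GENCODE annotation starts Cacna2d2 at base 107399612, so its RefSeq window lies inside the gene by that annotation. Of the 10 subunits, 7 had a window in the table. These matches describe letters and are not binding sites.

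Cacna2d1 (ENSMUSG00000040118, chr5:15934691-16374511, + strand), the α2δ subunit of many excitatory synapses, was high in PYR and VIP neurons. In PYR neurons its lowest, median and highest normalized counts were 1226, 2151 and 2683 in UCMS mice and 1521, 1818 and 2527 in control mice. In SST neurons they were 188, 465 and 683 in UCMS mice and 149, 360.4 and 638 in control mice. Every PYR library exceeded every SST and PV library of its arm. PV neurons had medians of 289 in UCMS and 344 in control mice, and VIP neurons 1564 in UCMS and 1105 in control mice. PYR neurons were above the other types by 1.97 ± 0.45 in UCMS and 1.96 ± 0.27 in control mice (log2, SE; limma adjusted p = 0.00336 and 7.58e-10). VIP neurons were above them by 1.46 ± 0.45 in UCMS and 1.00 ± 0.27 in control mice (limma adjusted p = 0.0464 and 0.0107), where the pyramidal markers were also higher than in PV or SST libraries. The VIP calls were lost without the library of mouse U601 in UCMS mice (1.32, limma adjusted p = 0.103) and without the 7 shallow libraries in control mice (1.05, limma adjusted p = 0.0654). The UCMS call was also lost in 5 other settings, pseudocount 1, no filter, protein-coding scaling, edgeR and without the shallow libraries, with differences of 1.17 to 1.54 and adjusted p from 0.0510 to 0.220 by limma or edgeR, and the control call with no filter (limma adjusted p = 0.0683). In PV neurons Cacna2d1 was lower, with log2 differences of -2.37 ± 0.47 in UCMS and -1.65 ± 0.27 in control mice (limma adjusted p = 0.000649 and 3.12e-07), and the PV and SST means in control mice, 376 ± 240.3 and 361 ± 133 (SD, n = 10 each), did not differ beyond their spread.

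Cacna2d2 (ENSMUSG00000010066, chr9:107399612-107529343, + strand), known in mouse as the α2δ gene lost in ducky ataxia, had the largest difference between a pair of types of the 10 subunits, -4.39 ± 0.43 for PYR against PV neurons of control mice (log2, SE). In PV neurons its lowest, median and highest normalized counts were 431, 1675 and 2473 in UCMS mice and 1495, 1657 and 2746 in control mice. In PYR neurons they were 7.64, 53.8 and 279 in UCMS mice and 9.50, 105 and 302 in control mice. The PV and PYR ranges do not overlap in either arm, and neither do those of SST and PYR neurons. SST medians were 1185 in UCMS and 950.4 in control mice, and VIP medians 223 in UCMS and 150.4 in control mice. In PV neurons Cacna2d2 was higher than in the other types by 2.95 ± 0.32 in UCMS and 2.93 ± 0.35 in control mice (log2, SE; limma adjusted p = 1.07e-14 and 1.54e-12). In PYR neurons it was lower, with log2 differences of -3.78 ± 0.31 in UCMS and -2.92 ± 0.35 in control mice (limma adjusted p = 1.12e-23 and 1.62e-12). Between SST and VIP neurons of control mice the difference was 2.71 ± 0.43 (limma adjusted p = 5.10e-07) and their ranges do not overlap, while PV and SST neurons (0.85 ± 0.43, limma adjusted p = 0.371) and PYR and VIP neurons (-0.83 ± 0.43, limma adjusted p = 0.355) missed the threshold. The antisense gene Gm17141 shares 82 exonic bases with Cacna2d2 and averaged 10.4 normalized counts.

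Cacna2d3 (ENSMUSG00000021991, chr14:28904943-29721864, - strand), an α2δ subunit that gabapentin binds poorly, was high in SST and VIP neurons and low in PV neurons. In SST neurons its lowest, median and highest normalized counts were 1727, 2156 and 3138 in UCMS mice and 1017, 1864 and 2825 in control mice. In PV neurons they were 64.8, 193 and 338 in UCMS mice and 35.6, 160.2 and 414 in control mice. The PV ranges lie wholly below those of SST and VIP neurons in both arms. VIP medians were 1235 in UCMS and 1341 in control mice, and PYR medians 657 in UCMS and 653 in control mice. SST neurons were above the other types by 2.02 ± 0.20 in UCMS and 1.82 ± 0.27 in control mice (log2, SE; limma adjusted p = 4.54e-16 and 2.29e-08). PV neurons were below them, with log2 differences of -2.79 ± 0.21 in UCMS and -2.80 ± 0.27 in control mice (limma adjusted p = 2.55e-25 and 9.33e-19). VIP neurons were above them by 1.22 ± 0.20 in UCMS and 1.18 ± 0.27 in control mice (limma adjusted p = 1.02e-06 and 0.00101), and without the 7 shallow libraries the control difference was 0.67 (limma adjusted p = 0.398).

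Expressed per kilobase of exon and as a share of the 3 α2δ genes, the make-up turned over between types. Cacna2d1 held 67.1 ± 8.63% of the sum in PYR neurons of UCMS mice and 63.0 ± 9.17% in those of control mice. Cacna2d2 held 78.0 ± 16.2% in PV neurons of UCMS mice and 81.5 ± 6.54% in those of control mice. Cacna2d3 held 57.4 ± 8.60% in SST neurons of UCMS mice and 57.1 ± 5.78% in those of control mice (SD; n = 10, 10, 9, 10, 10 and 10). In VIP neurons Cacna2d3 and Cacna2d1 shared the sum, at 52.0 ± 5.63% and 39.8 ± 7.27% in UCMS mice and 55.6 ± 14.0% and 35.4 ± 12.9% in control mice. The sum of the 3 genes had group means from 243 to 449.7 normalized counts per kilobase.

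Among the 4 high-voltage-activated pores of the 10 subunits, Cacna1a held 49.7 ± 7.26% of the per-kilobase sum in PV neurons of UCMS mice and 52.6 ± 13.1% in those of control mice (SD, n = 9 and 10). In the other types its group means were 23.5% to 29.8%. Cacna1e held 37.8 ± 3.90% in PYR neurons of UCMS mice and 35.5 ± 4.04% in those of control mice, against 11.8 ± 3.60% and 11.6 ± 4.87% in PV neurons of the same arms. Among the T-type pores Cacna1g led in PYR, SST and VIP neurons, with group means of 47.0% to 66.4%, and Cacna1i led in PV neurons, at 47.1 ± 14.7% in UCMS and 52.3 ± 17.9% in control mice. The summed T-type level of PV neurons, 171 ± 19.95 in UCMS and 156 ± 39.9 in control mice, was below the 355 to 406 normalized counts per kilobase that the other groups averaged. These shares were not tested. The high-voltage-activated sum leaves out the pore Cacna1d, so shares of all such pores would be smaller. Cacna1d averaged 63.8 normalized counts per kilobase in PV neurons of UCMS mice and 68.4 in those of control mice. In PYR neurons it averaged 108 in UCMS and 90.1 in control mice.

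**Figure D3:**
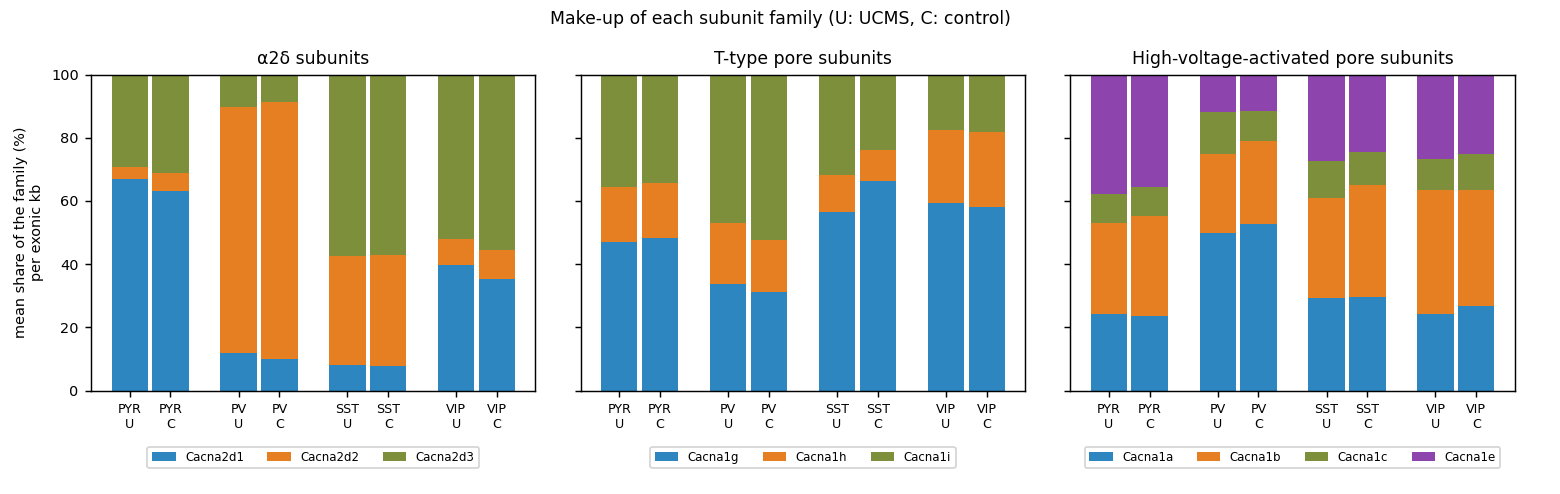
Mean share (%) of each gene in the per-kilobase sum of its family, stacked by neuron type, with UCMS (U) left of control (C). The leading α2δ gene is Cacna2d1 in PYR, Cacna2d2 in PV and Cacna2d3 in SST neurons. In PV neurons Cacna1a takes 49.7% (UCMS) and 52.6% (control) of the sum of Cacna1a, Cacna1b, Cacna1c and Cacna1e, which leaves out Cacna1d.

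The type differences were measured a second time in the UCMS mice, which are other animals than the control mice. Of the 40 differences of a subunit from the other types, 38 had the same sign in both arms. Over all genes tested in both arms, 63.8% of such differences did. The 4 differences of a gene sum to 0, so the 40 are not separate agreements. All genes include scarce ones down to a mean of 10, and the level of the subunits was not matched. Of the 20 calls in control mice, 18 were called in the same direction in UCMS mice and 0 in the opposite one, where 70.1% of all control calls were called again. The calls seen only in control mice were Cacna1c in PV and Cacna2d1 in SST neurons. In UCMS mice 4 subunits were called in PYR, 8 in PV, 4 in SST and 8 in VIP neurons, against 8.18%, 11.0%, 3.64% and 6.67% of all genes. Without the VIP library of mouse U601 the VIP count was 7, and the share of all genes called in that fit is not given. In VIP neurons of UCMS mice Cacna1b, Cacna1e and Cacna1g were called higher and Cacna1i lower, and in SST neurons Cacna1e and Cacna1g were called higher, which the control fit did not call; in the limma test of a stress difference between types, none of the 10 subunits passed the threshold.

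Pairs of types in control mice differed to unequal degrees. Between PV and VIP neurons 9 of the 10 subunits were called, against 6.83% of all genes, and between PYR and PV neurons 8 were, against 8.32%. Between PV and SST neurons 4 were called (3.68% of all genes), between PYR and SST neurons 3 (4.53%), between SST and VIP neurons 3 (2.93%) and between PYR and VIP neurons 2 (4.12%). The PV and SST calls were Cacna1b, Cacna1e, Cacna1g and Cacna2d3, each lower in PV neurons. The PYR and VIP calls were Cacna1i, 1.03 ± 0.28 higher in PYR neurons, and Cacna2d3, lower in PYR neurons with a difference of -1.04 ± 0.32 (log2, SE; limma adjusted p = 0.0108 and 0.0392); the Cacna2d3 call was lost in 5 settings, with adjusted p from 0.0570 to 0.607 by limma. Without the 7 shallow libraries the PYR and VIP count was 1, with Cacna1e higher in PYR neurons in place of these. The PYR and SST count was then 5, with Cacna1e and Cacna1h added, and the PYR and PV count 9, with Cacna1i added. The PV and VIP count was 8, with Cacna1c lost (limma adjusted p = 0.144), and the SST and VIP count 2, with Cacna1h lost (limma adjusted p = 0.111). For these pairs too, the share of all genes called without the shallow libraries is not given.

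No subunit passed the threshold for stress. Comparing UCMS with control mice, limma called 0 of the 10 in each of the 4 types, against 0.0808% of all genes in PYR neurons and 0% in the others, and 0 in the average over types and in the test of a stress difference between types, where 0% of all genes were called. At an unadjusted p under 0.05, limma had 0 subunits in PYR, 1 in PV, 1 in SST and 1 in VIP neurons, against 6.36%, 3.74%, 5.72% and 5.15% of all genes. It had 0 in the average and in the difference between types, against 6.82% and 4.68% of all genes. On recovered reads edgeR called 0 subunits in each type, against 4.61% of all genes in VIP neurons and 0% in the other types. DESeq2 also called 0 in each type, against 0.242%, 0.332%, 0.316% and 0.555% of all genes in PYR, PV, SST and VIP neurons, and both called 0 subunits and 0% of all genes in the difference between types. The members' median log2 difference was -0.02 in PYR, 0.07 in PV, 0.22 in SST and 0.16 in VIP neurons, against 0.10, 0.05, 0.15 and 0.17 over all genes.

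The subunits nearest to a stress difference were another in each type. Cacna1c in PV neurons had values of 909, 1530.1 and 1945 (lowest, median, highest) in UCMS mice and 544, 1063 and 2218 in control mice. Of its UCMS libraries, 8 of 9 lay above the control median, and the ranges overlap. Its log2 difference was 0.52 (95% interval 0.08 to 0.96; limma unadjusted p = 0.0201, adjusted p = 0.982). Without the shallow PV library of control mouse U3 it was 0.41 ± 0.21 (SE; limma unadjusted p = 0.0506, adjusted p = 0.982). Cacna1i in SST neurons had 780.5, 1144 and 1746 in UCMS mice and 593, 823 and 1075 in control mice, a log2 difference of 0.48 (0.02 to 0.94; limma unadjusted p = 0.0404, adjusted p = 0.853). Cacna2d1 in VIP neurons had 938, 1564 and 3657 in UCMS mice and 492.5, 1105 and 1872 in control mice, a log2 difference of 0.48 (0.03 to 0.92; limma unadjusted p = 0.0358, adjusted p = 0.932). The highest of these VIP values is that of mouse U601, and without it the difference was 0.34 (limma unadjusted p = 0.137, adjusted p = 0.852). Without the shallow VIP libraries it was 0.35 (limma unadjusted p = 0.136, adjusted p = 0.966). In PYR neurons the most extreme statistic was that of Cacna1e, at 0.09 (-0.06 to 0.24; limma adjusted p = 0.895).

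The intervals describe the difference between the arms, in which stress and single housing cannot be told apart, for each subunit and type separately. In PYR neurons the 95% intervals of the 9 subunits other than Cacna2d2 lay between -0.52 and 0.43, so that a 2-fold change lay outside them, and that of the scarce Cacna2d2 ran from -2.14 to 0.66. In VIP neurons the 9 other than Cacna2d2 lay between -0.71 and 0.92, and in SST neurons the 10 lay between -0.48 and 1.31. PV neurons were less precise, with the widest interval for Cacna1g, from -0.82 to 2.68 around a difference of 0.93 ± 0.83 (SE). The library of control mouse U3 had 0 reads of the gene, and without it the difference was 0.24 ± 0.34 (limma unadjusted p = 0.472).

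**Figure D4:**
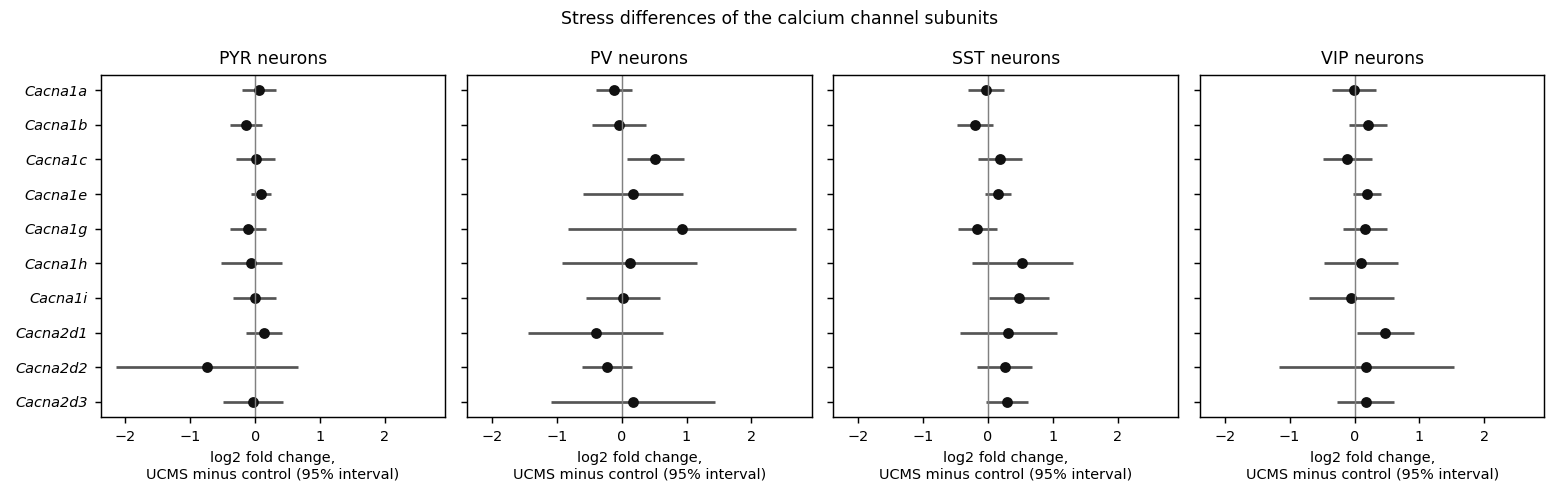
Log2 difference between UCMS and control mice for each subunit in each neuron type (point) with its 95% interval (line). All but 3 of the 40 intervals include 0, the exceptions being Cacna1c in PV, Cacna1i in SST and Cacna2d1 in VIP neurons. Without the PV library of control mouse U3 the unadjusted p of Cacna1c in PV neurons was 0.0506, and without the VIP library of mouse U601 that of Cacna2d1 in VIP neurons was 0.137 (limma).

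Other genes of the pathway were followed as a list of 21: remaining pore, α2δ and β subunits, release-site and anchoring partners, and calcium-activated potassium channels. Of these, 20 passed the filter in control mice, and 6 were called in PYR neurons (5 higher, 1 lower), 7 in PV (2 higher, 5 lower), 2 in SST (1 higher, 1 lower) and 4 in VIP neurons (2 higher, 2 lower), against 6.26%, 7.35%, 2.49% and 4.23% of all genes. The list's median log2 differences were 0.34, -0.26, -0.07 and 0.12 in PYR, PV, SST and VIP neurons, against 0.04, -0.08, -0.04 and 0.02 over all genes. Cacnb1 and Cacnb3, β subunits that carry pores to the membrane, were higher in PYR neurons, by 1.01 ± 0.25 and 0.85 ± 0.23, and lower in PV neurons, with differences of -1.01 ± 0.25 and -0.97 ± 0.23 (log2, SE; limma adjusted p from 0.00119 to 0.00754). Cacnb2 was higher in VIP neurons, by 1.42 ± 0.36, and Cacnb4 was lower there, with a difference of -0.82 ± 0.17 (limma adjusted p = 0.00602 and 0.000171). Rimbp2, which tethers calcium channels to release sites, was 1.11 ± 0.17 higher in PYR neurons, and Rims3, of the RIM family of release-site proteins, was 1.00 ± 0.21 higher in SST neurons and lower in PV neurons, with a difference of -0.96 ± 0.21 (limma adjusted p = 3.95e-08, 0.000865 and 0.000566). Stac2, an adaptor that slows inactivation of L-type channels, was 1.64 ± 0.28 higher in PV neurons and lower in PYR neurons, with a difference of -1.09 ± 0.28 (limma adjusted p = 1.62e-06 and 0.00431).

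The calcium-activated potassium channels of that list, which calcium entry opens, also differed in control mice. Kcnma1, the BK pore, was higher in PYR and PV neurons, by 0.51 ± 0.14 and 0.54 ± 0.14, and lower in VIP neurons, with a difference of -0.74 ± 0.14 (log2, SE; limma adjusted p = 0.00854, 0.00367 and 3.00e-05). Kcnn3, an SK pore, was 2.69 ± 0.75 higher in PYR neurons and lower in PV neurons, with a difference of -3.05 ± 0.75 (limma adjusted p = 0.00967 and 0.00181). Its control medians were 272 normalized counts in PYR and 2.49 in PV neurons, where 4 of 10 libraries were at 0. In UCMS mice the Kcnn3 medians were 361 in PYR and 41.2 in PV neurons. Kcnn2, another SK pore, was 1.57 ± 0.48 higher in VIP neurons and lower in SST neurons, with a difference of -2.11 ± 0.48 (limma adjusted p = 0.0332 and 0.00165). Over the whole list in UCMS mice, the highest differences were 1.66 in PYR and 1.29 in VIP neurons. The lowest there were -1.74 in PV and -1.59 in SST neurons, so the differences of Kcnn2 and Kcnn3 were smaller in UCMS mice. Both genes were picked by their values in control mice, so smaller values in other mice cannot be read as an effect of stress. In the limma test of a stress difference between types, 0 of the listed genes passed the threshold. Stress called 0 of the pathway genes in each type by limma, against 0.0808% of all genes in PYR neurons and 0% in the others. Limma had 0, 1, 1 and 1 at an unadjusted p under 0.05 in PYR, PV, SST and VIP neurons. The listed genes tested were 19, 21, 19 and 20, and the shares of all genes were 6.36%, 3.74%, 5.72% and 5.15%.

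For each subunit described here, the genes most like it were the 3 with the highest Pearson correlation over the 79 libraries, as a description, since libraries of a type share their cell type and depth. Cacna2d2 ran most like Atp1b1 (r = 0.857), Kcnc2 (0.841) and Rcan2 (0.829). Cacna1g ran most like Adcy2 (0.876), Grm7 (0.806) and Neo1 (0.781), and Cacna1e like Aplp1 (0.851), Synpo (0.844) and Arhgap33 (0.840). Cacna2d3 and Cacna1b shared Synpr (0.802 and 0.678) and Fxyd6 (0.795 and 0.794) among their 3, and Cacna2d1 ran like Arpp21 (0.775), Baiap2 (0.721) and Camk2a (0.713). Likeness was weaker for Cacna1h (Miat, 0.653), Cacna1i (Phf24, 0.593) and Cacna1c (Dnah9, 0.540). Among the subunits themselves the strongest pairs over the 79 libraries were Cacna1e with Cacna1g (r = 0.838) and, with the opposite sign, Cacna2d1 with Cacna2d2 (r = -0.692).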

How the data were processed

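RNA was measured in 79 libraries from 20 mice. The deposited values are a normalized signal: the authors divided each library's read counts by its own size factor. The submitters' processing notes name HISAT2, SAMtools 1.3, DESeq2 and the build GRCm38 (mm10). Neither the counting tool nor its annotation and strand setting was given, so reads of overlapping or antisense genes cannot be told apart. Once each library was divided by what 1 read was worth, 100% of the deposited signal values lay within 0.001 of a whole read count; a gene at 0 allows up to 3 reads (1.87 to 7.18 normalized counts), for counting error only. Exonic lengths and coordinates come from GENCODE M21 (38636 of 38879 genes matched).

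Differences were fitted with limma 3.58.1 (trend, robust) in R 4.3.3 on log2(normalized count + 4), dropping genes whose mean was below 10, Benjamini-Hochberg adjusted over all genes; adding 4 understates changes of low genes. Intervals are limma's 95% intervals. All 10 subunits passed the filter in every comparison. On recovered reads edgeR 4.0.16 and DESeq2 1.42.0 called 926 and 2771 genes for PV neurons against the others in control mice, and 0 and 56 for stress in PV neurons. Libraries that share a mouse number are from 1 animal, so types were compared within mice. After removing group means, the correlation of such libraries had a median of 0.00773, and 0 of 117 pairs exceeded 0.1. For libraries of different types from different mice the median was -0.000605, so libraries of 1 mouse were hardly more alike. Mice are the replicates. All 10 subunits are described; of the pathway list, up to 3 called genes per type and direction were named (Kcnma1 and Kcnn3 in PYR and Kcnn3 in PV neurons fall outside this and were named after their values were seen), and like genes were sought among those with a mean of at least 100. The genes most like Cacna1a are not reported here. The members, lists and tests were chosen with earlier results of these data known.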

Additional observations from a re-analysis of the deposited data

Results flagged for a closer look

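In 10 of 80 groups of 9 or 10 libraries (1 subunit in 1 type and arm) the highest or lowest library lay far from its nearest neighbour relative to the group's range, by Dixon's test at 95%. Chance alone marks about 1 group in 20 where values are normally distributed and groups are independent. Here the test used counts without a log scale, and the subunits share libraries, so the flags cannot be weighed against that rate. Values are normalized counts. VIP neurons of UCMS mouse U601 were marked for 3 subunits: Cacna1b at 4652 (next 3701, group median 3079), Cacna1h at 2597 (next 1159, median 744) and Cacna2d1 at 3657 (next 1715, median 1564). That library held 8982104 reads and 9636 detected genes, and the calls without it stand beside the results for VIP neurons.

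In PV neurons of UCMS mice the high values were Cacna1a at 5171 in mouse U604 (next 3526) and Cacna1g at 1068 in mouse U603 (next 649.8), and the low value was Cacna2d2 at 431 in mouse U605 (next 1509.8). In PV neurons of control mice Cacna1e was low at 164 in mouse U3 (next 1379.6), a shallow library. In PYR neurons of control mice Cacna1a was high at 3175 in mouse U3 (next 2389.99) and Cacna1e at 11009.6 in mouse U10 (next 8375), and in SST neurons of control mice Cacna1c was low at 488 in mouse U4 (next 1645).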

How the results depend on the processing

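The 77 single results followed were 73 type differences taken because they were called and the 4 stress differences nearest to a call. Of their 799 recomputed values, 779 kept their direction and their side of the threshold, 20 kept the direction and lost the call, and none reversed; 8 of the 20 came without the 7 shallow libraries, a setting chosen after seeing the depths, as was leaving out mouse U601 after seeing its values. Among 686 recomputed values of the 67 type differences not called, 22 gained a call, 8 of them with DESeq2 and 6 without the shallow libraries. Of the counts of called subunits, those for SST neurons against the others and for PYR against SST neurons, in control mice, were each 5 without the shallow libraries (3 with all libraries), and VIP neurons against the others had 1 (4 with all). DESeq2 gave 5 for PYR against SST neurons, where it called 2207 of the 17498 genes tested, against 793 by limma. All-gene counts without the shallow libraries are not given. PYR against VIP neurons had 1 rather than 2 with a pseudocount of 1, without a filter, after quantile normalization, after scaling to protein-coding reads and without the shallow libraries; Cacna2d3 lost its call in all 5. The causes were not tested. Without the replicate block (the mouse) the counts in PYR, PV, SST and VIP neurons of control mice were 4, 9, 3 and 4, as with it, and stress with the mouse as a random replicate block called 0 in each type; no call of a subunit depended on the pairing. Over all genes DESeq2 called 1605 for SST neurons of control mice against 436 by limma, and for stress in VIP neurons edgeR called 896 and DESeq2 108 against 0. Quantile normalization moved the median of all genes by 0.12 for PV neurons of UCMS mice and by -0.10 for stress in VIP neurons, while the subunits' median stayed at -1.10 (-1.09 before) and 0.16 (0.16 before).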
